A study of Mus musculus with 12 samples.

Results

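The genes described are 10 lymphoid priming genes: Il7r, Notch1, Ccr9, Rag1, Rag2, Dntt, Igll1, Vpreb1, Ikzf1 and Satb1. They were taken by name, not by their values, although earlier results of these data were known when they were chosen. The table held 37187 genes measured in LSK cells of mouse bone marrow. LSK cells carry Sca-1 and c-Kit but no lineage markers, and they hold the blood stem cells and multipotent progenitors. The labels give 4 genotypes with 3 libraries each: dKO, which lacks both Tet2 and Traf6, Tet2 KO, Traf6 KO and WT. Tet2 encodes an enzyme that oxidises methylated cytosine in DNA, and Traf6 a ubiquitin ligase of Toll-like and interleukin-1 receptor signalling. The labels do not state the deleted exons, any Cre or promoter, the strain, age or sex of the mice, or whether the libraries of a genotype came from separate animals. All p-values therefore rest on the spread among libraries of a genotype, and that spread may be technical.

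Lymphoid priming is the low-level expression of lymphocyte genes in multipotent progenitors, before cells commit to the B or T lineage. Interleukin-7 receptor and Notch signals, with Ikaros and SATB1 in the nucleus, are known to act on that step. The recombination enzymes and the surrogate light chain mark its early products.

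All 10 genes were in the table and all 10 passed the filter, a normalised signal of at least 10 in at least 3 libraries, as did 14045 genes in total. Igll1 passed only through dKO and Tet2 KO libraries, 3 of each, and none of the Traf6 KO or WT libraries reached 10. The filter therefore favours Igll1 in counts of dKO or Tet2 KO against WT or Traf6 KO. Rag1 passed through 1 dKO library and 2 WT libraries. The values are whole reads divided by a size factor, and 22169673 to 53921402 reads per library stand behind them, so that 1 read is worth 0.518 to 1.79 signal units. Low signals rest on few reads, between 0 and 34 per library for Rag1. In bulk samples, fewer cells of a type and less RNA per cell cannot be told apart.

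The libraries had features that touch the results. In dKO libraries, the median log2 difference from the WT mean was 0.78, 1.20 and 2.84 over 963 transcripts of at most 1000 nt, and -0.81, -1.42 and -1.41 over 4809 transcripts above 4000 nt. In the other 9 libraries it lay between -0.21 and 0.69 for the short and between -0.43 and 0.08 for the long transcripts. The comparison with dKO is therefore given as deposited and again after a trend on transcript length and GC content was removed from each library. Traf6 signal in the library labelled Traf6 KO replicate 1 was 2474, within the WT range of 1935 to 3006, and Tet2 signal in the library labelled Tet2 KO replicate 1 was 668, within the WT range of 525 to 783. Y-linked Eif2s3y was at 4230 to 5669 in dKO libraries, 1524 in the library labelled Traf6 KO replicate 1, at most 55.4 in the other single knockout libraries, and 2812 to 3199 in WT libraries. Xist, transcribed from the inactive X chromosome, was at 990 to 3826 in Tet2 KO libraries and 1164 to 2095 in Traf6 KO libraries, against at most 1.30 in dKO and 17.0 in WT libraries. The library labelled Traf6 KO replicate 1 had both, with Xist at 1574. Sex and genotype cannot be told apart where single knockouts are set against dKO or WT. Kit, which encodes the c-Kit receptor of the sort, stood at 11935, 4099 and 4105 in dKO libraries, against 44484, 47837 and 47804 in WT libraries.

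The promoter sequences of Igll1, Vpreb1 and Ccr9 are shown because Igll1 and Ccr9 had the largest changes of the 10 genes in dKO against WT, in opposite directions, and Vpreb1 is the neighbour of Igll1 and encodes its partner protein. They are the 250 bases before the RefSeq start site on GRCm38.p6, written 5′ to 3′ on the strand of the gene, with each E-box (CANNTG, which reads the same on both strands) in capitals. E-boxes are bound by E2A and related basic helix-loop-helix factors of early lymphoid cells.
Igll1, chr16:16863986-16864235, minus strand: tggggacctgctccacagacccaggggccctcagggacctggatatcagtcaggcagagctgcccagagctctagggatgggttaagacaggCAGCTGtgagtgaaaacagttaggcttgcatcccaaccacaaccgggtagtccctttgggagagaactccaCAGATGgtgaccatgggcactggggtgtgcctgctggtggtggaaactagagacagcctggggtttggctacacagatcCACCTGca
Vpreb1, chr16:16869256-16869505, minus strand: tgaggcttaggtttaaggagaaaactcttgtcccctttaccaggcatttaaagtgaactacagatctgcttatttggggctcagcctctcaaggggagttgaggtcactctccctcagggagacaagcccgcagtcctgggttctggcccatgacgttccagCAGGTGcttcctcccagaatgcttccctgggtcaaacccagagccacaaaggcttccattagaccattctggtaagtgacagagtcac
Ccr9, chr9:123766961-123767210, plus strand: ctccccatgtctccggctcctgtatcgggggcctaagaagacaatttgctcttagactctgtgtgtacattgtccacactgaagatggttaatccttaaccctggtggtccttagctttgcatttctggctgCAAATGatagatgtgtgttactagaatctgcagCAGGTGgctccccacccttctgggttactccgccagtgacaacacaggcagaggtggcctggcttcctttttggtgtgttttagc

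The Igll1 promoter held 3 E-boxes, that of Vpreb1 held 1 and that of Ccr9 held 2, and 66.2% of the 32851 RefSeq promoters of this length held at least 1. In each of the 3 promoters 1 E-box had the letters CAGGTG on one strand, at position -8 from the start site in Igll1, -88 in Vpreb1 and -85 in Ccr9. That form was also in the Rag1 window, at -135, and in 1 of 5 Satb1 windows, at -172, and was present in 17.2% of all promoters. Among the other genes, Il7r, Dntt and Rag1 had 3 E-boxes in the same window and Rag2 had 1, Notch1 and Ikzf1 had none, and 2 of the 5 Satb1 windows held 2 and 1. The Ikaros core letters TGGGAA, searched on both strands, were found in the Rag1 window and in 1 of 5 Satb1 windows, beside 21.6% of all promoters. The letters TTCNNNGAA, bound by STAT factors such as the STAT5 of interleukin-7 signalling, were found in the Il7r window alone, beside 7.02% of all promoters. A match describes the letters and is not evidence of binding. Part of the Vpreb1 and Ccr9 windows is also transcribed in a non-coding model of the same gene in GENCODE M21.

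In WT libraries, the level per kilobase of the longest transcript put Dntt first, at 1917 ± 648 signal per kb (SD, n = 3). Ikzf1 followed at 662 ± 124, Satb1 at 316.5 ± 72.5 and Notch1 at 80.0 ± 18.2 signal per kb, and none of these 4 overlapped its neighbour in that order. Rag2 at 21.8 ± 27.3, Vpreb1 at 16.1 ± 6.79 and Il7r at 11.8 ± 5.19 signal per kb overlapped one another in sequence. Ccr9 at 4.68 ± 1.03, Rag1 at 1.84 ± 1.76 and Igll1 at 1.29 ± 0.835 signal per kb were lowest, and each overlapped the next.

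**Figure D1:**
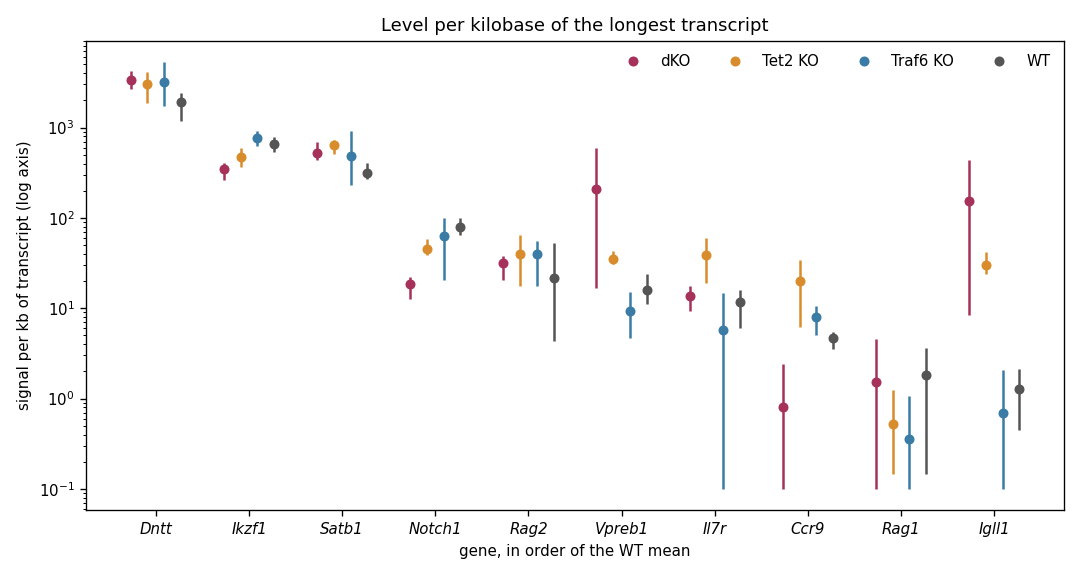
Level of each gene in signal per kilobase of its longest transcript (log axis), in the order of the WT mean. Points are means and lines run from the lowest to the highest of 3 libraries of each genotype, and values below 0.1, zeros included, are drawn at 0.1. Dntt stood highest in every genotype, and Igll1 had a dKO mean of 154.7 signal per kb, against the lowest WT mean, 1.29.

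Across the genes, dKO against WT gave 4 of 10 past an adjusted p of 0.05 (limma): Igll1 was higher and Notch1, Ikzf1 and Ccr9 were lower. Over all tested genes 48.3% were called in that comparison, so 4 of 10 is not above the background. The median log2 change of the 10 genes was 0.50, beside -0.09 over all tested genes. With the trend of length and GC removed, 2 of 10 genes were called, both higher, Igll1 and Satb1, beside 29.2% of all genes with a length. The groups did not overlap for 6 of 10 genes, beside 58.4% of all tested genes. In dKO against Tet2 KO, 1 of 10 genes was called, Ccr9, which was lower, beside 35.3% of all genes, and the same gene alone was called without the trend, beside 15.4%. In dKO against Traf6 KO, 4 of 10 were called, the same genes in the same directions as against WT, beside 38.0%, and without the trend 3 of 10 were called, Igll1 and Satb1 higher and Ccr9 lower, beside 18.8%. The median log2 change of the 10 genes was -0.24 against Tet2 KO, beside -0.12 over all tested genes, and 0.29 against Traf6 KO, beside 0.02. The comparisons share the dKO libraries, as those against WT share the WT libraries, and are not independent of one another.

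None of the genes passed the threshold in either single knockout. In Tet2 KO against WT 0 of 10 were called by limma, beside 0.413% of all genes called. At an unadjusted p under 0.05 (limma) there were 2 of the 10, beside 1186 of all 14045 tested genes. The groups did not overlap for 6 of 10 genes, Il7r, Ccr9, Igll1, Vpreb1 and Satb1 on the higher side and Notch1 on the lower, beside 19.2% of all tested genes. The median log2 change was 1.06, beside 0.02 over all tested genes. Both include Igll1, which passed the filter only through dKO and Tet2 KO libraries, so the filter favours its higher level there. In Traf6 KO against WT 0 of 10 were called by limma, beside 0.271% of all genes. At an unadjusted p under 0.05 (limma) there were 0 of the 10, beside 1096 of all 14045 tested genes. No gene of the 10 had groups that did not overlap, beside 20.7% of all tested genes, and the median was -0.18, beside -0.03. On the recovered reads edgeR called 0 of 10 in both single knockouts, and DESeq2 called 0 of the 8 genes to which it gave an adjusted p, all but Igll1 and Vpreb1. The interaction sets the change of dKO against Tet2 KO beside that of Traf6 KO against WT. It called 0 of 10 by limma, beside 0.221% of all genes. At an unadjusted p under 0.05 (limma) there was 1 of the 10, beside 2616 of all 14045 tested genes, so that count is not above the background. edgeR called 0 of 10 there, and DESeq2 0 of the 5 genes with an adjusted p, which left out Ccr9, Igll1, Il7r, Rag1 and Vpreb1.

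**Figure D2:**
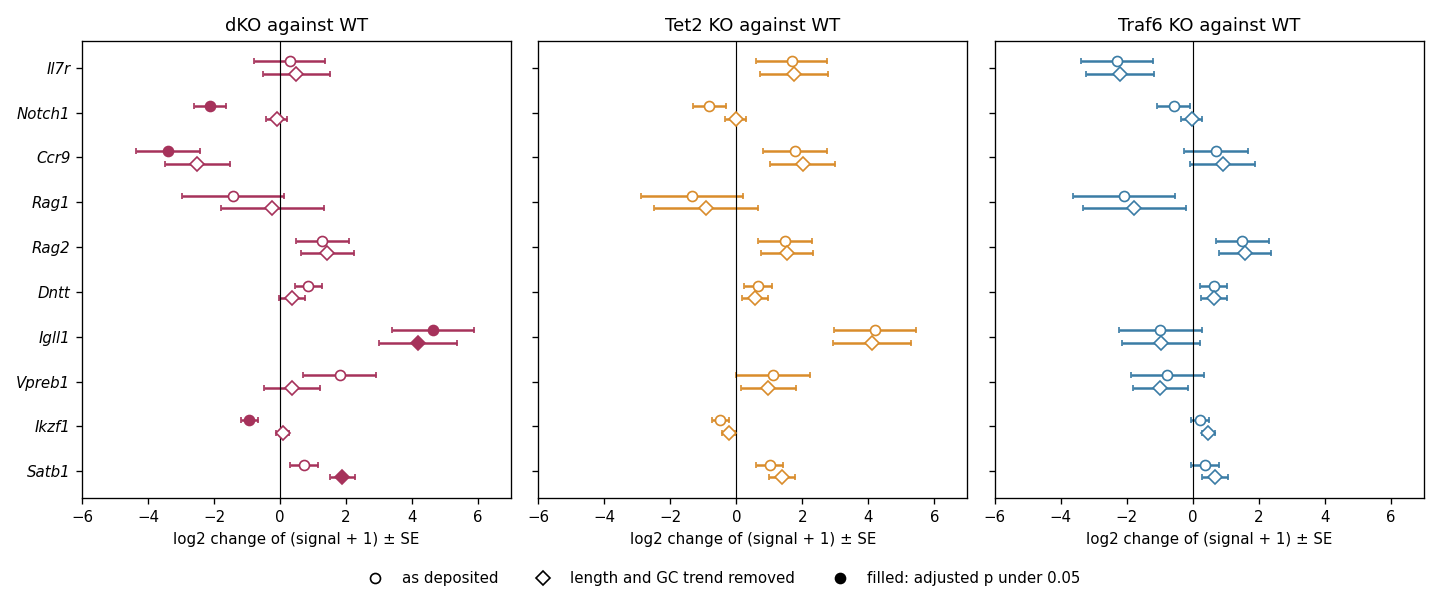
Log2 change of (signal + 1) with its standard error (limma) for each gene in dKO, Tet2 KO and Traf6 KO against WT, 3 libraries each; circles are values as deposited, diamonds those with the trend of length and GC removed, and filled symbols passed an adjusted p of 0.05. In dKO, Notch1 was at -2.12 as deposited and at -0.10 with the trend removed, Satb1 at 0.72 and 1.89, and Igll1 at 4.63 and 4.18.

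Among the receptors, Il7r (chromosome 15, 9505788 to 9530176, minus strand, GRCm38) encodes the alpha chain of the interleukin-7 receptor, a growth and survival receptor of early lymphoid cells. Its signal was 32.8, 50.9 and 62.6 in dKO libraries, 137, 210 and 66.8 in Tet2 KO libraries, 51.8, 0 and 8.88 in Traf6 KO libraries, and 56.8, 46.8 and 21.2 in WT libraries. All Tet2 KO libraries were above all WT libraries, dKO and WT overlapped, and 1 Traf6 KO library had no read. The log2 change was 0.29 ± 1.08 (SE) in dKO against WT (limma adjusted p 0.844), or 0.49 ± 1.02 with the trend removed (limma adjusted p 0.752), and 1.67 ± 1.08 in Tet2 KO against WT (limma adjusted p 0.824). In dKO against Traf6 KO it was 2.58 ± 1.08 (limma adjusted p 0.0745). That value was 3.94 when the library labelled Traf6 KO replicate 1, the one with the highest Il7r of its group, was left out (limma adjusted p 0.0184), which passes the threshold. Over 26 alternative ways of processing, the change against Traf6 KO ranged from 1.075 to 3.94 and was called in 2.

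Notch1 (chromosome 2, 26457903 to 26516663, minus strand) encodes the receptor that directs progenitors to the T lineage. Its signal was 210, 119 and 198 in dKO libraries, 555, 365 and 372 in Tet2 KO libraries, 674, 196 and 942 in Traf6 KO libraries, and 609, 721 and 948 in WT libraries. All dKO libraries were below all Tet2 KO and WT libraries, and Traf6 KO replicate 2 lay within the dKO range. Notch1 fell by 2.12 ± 0.49 on the log2 scale in dKO against WT (limma adjusted p 0.00437) and by 1.55 ± 0.49 in dKO against Traf6 KO (limma adjusted p 0.0285). In dKO against Tet2 KO the value was -1.30 (limma adjusted p 0.0531). The transcript is 9488 nt long, the longest of the 10, and with the trend of length and GC removed the change in dKO against WT was -0.10 ± 0.32 (limma adjusted p 0.834). On that scale the log2 levels were 8.64, 8.42 and 8.74 in dKO libraries, against 8.74, 8.46 and 8.92 in WT libraries, and the groups overlapped. The fall against Traf6 KO was not called when the library labelled Traf6 KO replicate 1 was left out (-1.33, limma adjusted p 0.0923).

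Ccr9 (chromosome 9, 123678439 to 123784330, plus strand) encodes the receptor of the chemokine CCL25, which guides progenitors to the thymus. Its signal was 0, 0 and 12.5 in dKO libraries, 179, 99.7 and 32.6 in Tet2 KO libraries, 26.4, 55.7 and 41.7 in Traf6 KO libraries, and 28.4, 26.3 and 18.3 in WT libraries. The reads behind it were 0, 0 and 7 in dKO libraries, against 40, 23 and 19 in WT libraries, and no dKO library reached the level of any other library. Ccr9 fell by 3.39 ± 0.97 in dKO against WT (limma adjusted p 0.0125), by 5.15 ± 0.97 in dKO against Tet2 KO (limma adjusted p 0.00688) and by 4.09 ± 0.97 in dKO against Traf6 KO (limma adjusted p 0.00940). With a pseudocount of 5 the change against WT was -1.93 (limma adjusted p 0.0264), and edgeR on the reads did not call it (adjusted p 0.0629). With the trend of length and GC removed it was -2.51 ± 0.98 against WT (limma adjusted p 0.0699), -4.52 against Tet2 KO (limma adjusted p 0.0166) and -3.42 against Traf6 KO (limma adjusted p 0.0289). Without the libraries labelled Tet2 KO and Traf6 KO replicate 1, the change against Tet2 KO was -4.61 and was not called (limma adjusted p 0.0651). The interaction was -5.85 ± 1.37, with an unadjusted p of 0.000861 and a limma adjusted p of 0.174. Of the exon bases of Ccr9, 18.8% are shared with AC165425.1 on the other strand, and the library kit does not mark strand.

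Among the recombination enzymes, Rag1 (chromosome 2, 101638282 to 101649501, minus strand) and Rag2 (chromosome 2, 101624718 to 101632529, plus strand) together cut DNA at the antigen receptor segments. They lie 5.752 kb apart, and Traf6, the gene targeted in Traf6 KO and dKO mice, lies 28.927 kb from Rag1 and 45.899 kb from Rag2. Rag1 signal was 0, 0 and 30.4 in dKO libraries, 1.05, 0.968 and 8.28 in Tet2 KO libraries, 0, 0 and 7.10 in Traf6 KO libraries, and 24.1, 11.4 and 0.962 in WT libraries. Every genotype overlapped every other for Rag1, and the log2 change in dKO against WT was -1.43 ± 1.54 (limma adjusted p 0.465). It was -0.23 ± 1.57 with the trend removed (limma adjusted p 0.928).

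Rag2 signal was 70.4, 125 and 129 in dKO libraries, 126, 219 and 60.6 in Tet2 KO libraries, 60.0, 157 and 192 in Traf6 KO libraries, and 182, 14.9 and 26.9 in WT libraries. WT replicate 1 was above all dKO libraries and the other WT libraries were below them. Rag2 was 1.28 ± 0.81 in dKO against WT on the log2 scale (limma adjusted p 0.205), and without WT replicate 1 it was 2.32 (limma adjusted p 0.0185), which passes the threshold. Over 26 alternative ways of processing, the Rag2 change ranged from 0.44 to 2.32 and was called in 1. It was 1.44 ± 0.79 with the trend removed and all libraries (limma adjusted p 0.187). B230118H07Rik, a gene whose exons overlap 208 bases of Rag2 and 80 bases of Rag1, had signals of 1885, 2525 and 7808 in dKO libraries, against 1331, 1108 and 989 in WT libraries, and how many of its reads were given to Rag2 was not tested. Of the 5 tested neighbours, which include Traf6 itself, 2 rose and 2 fell in dKO against WT, beside 48.3% of all genes called. With the trend removed 1 rose, B230118H07Rik, and 0 fell, beside 29.2%.

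Dntt (chromosome 19, 41029275 to 41059525, plus strand) encodes terminal transferase, which adds bases at the joins. Its signal was 6858, 5730 and 9015 in dKO libraries, 6682, 8876 and 3936 in Tet2 KO libraries, 5338, 3660 and 11338 in Traf6 KO libraries, and 5186, 2536 and 4528 in WT libraries. All dKO libraries were above all WT libraries, and the single knockouts overlapped WT. The log2 change was 0.86 ± 0.41 in dKO against WT (limma adjusted p 0.102), 0.66 ± 0.41 in Tet2 KO against WT (limma adjusted p 0.812) and 0.63 ± 0.41 in Traf6 KO against WT (limma adjusted p 0.769). In dKO against WT it was 0.37 ± 0.39 with the trend removed (limma adjusted p 0.514). On that scale the log2 levels were 12.63, 12.25 and 12.46 in dKO libraries, against 12.37, 11.53 and 12.33 in WT libraries, and the groups overlapped.

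**Figure D3:**
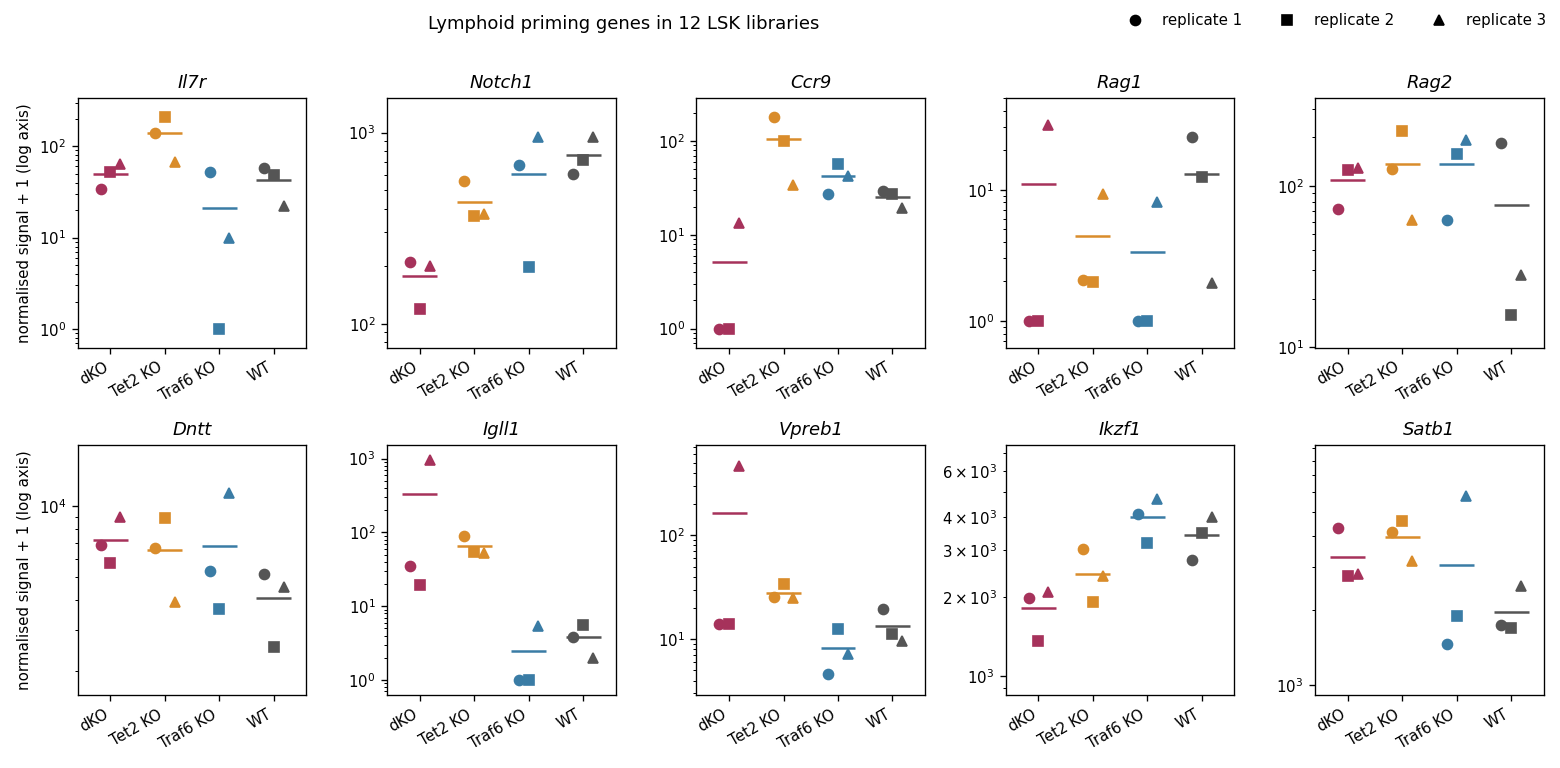
Normalised signal plus 1 (log axis) of the 10 genes in each of the 12 libraries, by genotype; marker shapes give the replicate number and lines the mean of (signal + 1) over 3 libraries. For Igll1 and Vpreb1 the dKO mean is set by replicate 3, at 951 and 459, and for Ccr9 2 dKO libraries have no read.

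The surrogate light chain, formed by the products of Igll1 and Vpreb1, pairs with the immunoglobulin heavy chain on pro-B and pre-B cells. The genes lie 4.417 kb apart, Igll1 at 16860671 to 16863985 and Vpreb1 at 16868403 to 16870843 on the minus strand of chromosome 16. Igll1 signal was 33.8, 18.3 and 951 in dKO libraries, 89.7, 53.2 and 52.3 in Tet2 KO libraries, 0, 0 and 4.44 in Traf6 KO libraries, and 2.84, 4.57 and 0.962 in WT libraries. In reads, dKO libraries held 36, 14 and 532, Tet2 KO libraries 85, 55 and 101, Traf6 KO libraries 0, 0 and 5, and WT libraries 4, 4 and 1. Every dKO and Tet2 KO library was above every Traf6 KO and WT library. Igll1 rose by 4.63 ± 1.25 in dKO against WT on the log2 scale (limma adjusted p 0.00931) and by 5.61 ± 1.25 in dKO against Traf6 KO (limma adjusted p 0.00679). Without dKO replicate 3 the rise against WT was 2.90 (limma adjusted p 0.0319). In Tet2 KO against WT it was 4.20 ± 1.25 (limma adjusted p 0.218), and in dKO against Tet2 KO it was 0.43 ± 1.25 (limma adjusted p 0.809), or -1.31 without dKO replicate 3 (limma adjusted p 0.337). With the trend of length and GC removed the rise in dKO against WT was 4.18 ± 1.18 (limma adjusted p 0.0182), and with dKO replicate 3 also left out the value was 2.61 and was not called (limma adjusted p 0.0717).

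Vpreb1 signal was 13.1, 13.04 and 459 in dKO libraries, 24.3, 32.9 and 23.8 in Tet2 KO libraries, 3.64, 11.6 and 6.21 in Traf6 KO libraries, and 18.4, 10.3 and 8.66 in WT libraries. Only dKO replicate 3 stood apart from WT among the dKO libraries, while all Tet2 KO libraries were above all WT libraries. The log2 change in dKO against WT was 1.81 ± 1.11 (limma adjusted p 0.192) and without dKO replicate 3 it was 0.13 (limma adjusted p 0.903). The transcript is 773 nt long, and with the trend removed the change was 0.37 ± 0.84 (limma adjusted p 0.776). On the recovered reads edgeR called it, at 3.55 with all libraries (adjusted p 0.0249). Vpreb2, a copy 1109.6 kb away whose coding transcript is identical to that of Vpreb1 at 739 of 766 aligned bases (96.5%), had 34.0 in dKO replicate 3 and at most 4.22 in any other library. Reads could be split between the copies, so the level of each is uncertain. Of the exon bases of Vpreb1, 9.01% are shared with Top3b on the other strand, and the library kit does not mark strand. How many Top3b reads were given to Vpreb1 was not tested.

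Other B lineage genes moved with the surrogate light chain in dKO replicate 3. Cd79a, a signalling chain of the B cell receptor, had 617 in dKO replicate 3, against 18.8 and 1.30 in the other dKO libraries and 5.68 to 10.3 in WT libraries. Vpreb3 had 161 in that library, Ly6d 559 and the immunoglobulin light chain Igkc 28286, while Pax5 was at 0 and Ms4a1 at 7.15. The summed signal of 9 pro-B and pre-B markers was 15496, 18489 and 25005 in dKO libraries, 9258, 12183 and 15270 in Tet2 KO libraries, 10879 to 11319 in Traf6 KO libraries, and 7929, 8857 and 9430 in WT libraries. Most of each sum was Cd24a alone, at 13535, 15849 and 16460 in dKO libraries and 6184, 7764 and 8303 in WT libraries. Cd24a was called higher in dKO against WT as deposited, but not with the trend of length and GC removed. The sum of 8 mature B and plasma markers was 68080 in dKO replicate 3 and 72660 in Tet2 KO replicate 2, and 7998 to 35098 in the other libraries. The sum of 8 plasmacytoid dendritic cell markers was 14496 in dKO replicate 3 and 2538 to 3309 elsewhere. In that library Bst2 at 12021 and Runx2 at 1444 made up most of it. Siglech was at 42.9 there, against 0 in the other dKO libraries and at most 26.4 elsewhere. Cox6a2 was at 356, against at most 46.9 in any other library, and Pacsin1 at 67.9, against at most 47.9. Ly6d, given above, is also in this list. Runx2 and Spib were not highest there, with Runx2 at 1803 in WT replicate 3. Spib was at 5.36, against 6.57 in dKO replicate 1. Klk1 had no read in any library. The sum of the natural killer cell markers was 49621 in dKO replicate 3, of which Nkg7 was 49423, and 3497 to 10912 in the other libraries. Klrd1 was at 127 in dKO replicate 3, against at most 35.2 elsewhere. Klrb1c was at 71.5 there, against 129.5 and 155 in the other dKO libraries. Ncr1 was at 0 in dKO replicate 3. Transcripts of at most 1000 nt, as given above, had a median log2 difference of 2.84 in the same library. Ly6a, the Sca-1 gene of the sort, was also at 13218 in dKO replicate 3, against 1968 and 2446 in the other dKO libraries. The T cell markers Cd3e and Cd8a had no read in any dKO or Tet2 KO library, and the sum of 10 T cell markers did not exceed 125.3 in any library. Cd4 ranged from 0 in Traf6 KO replicate 2 to 100 in Tet2 KO replicate 3. Cd2 was at 23.2 and Ptcra at 17.9 in dKO replicate 3, and both were at 0 in the other dKO libraries. Cd2 was also at 25.7 in Traf6 KO replicate 3. The part of these genes in the level of Igll1 and Vpreb1 was not tested.

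**Figure D4:**
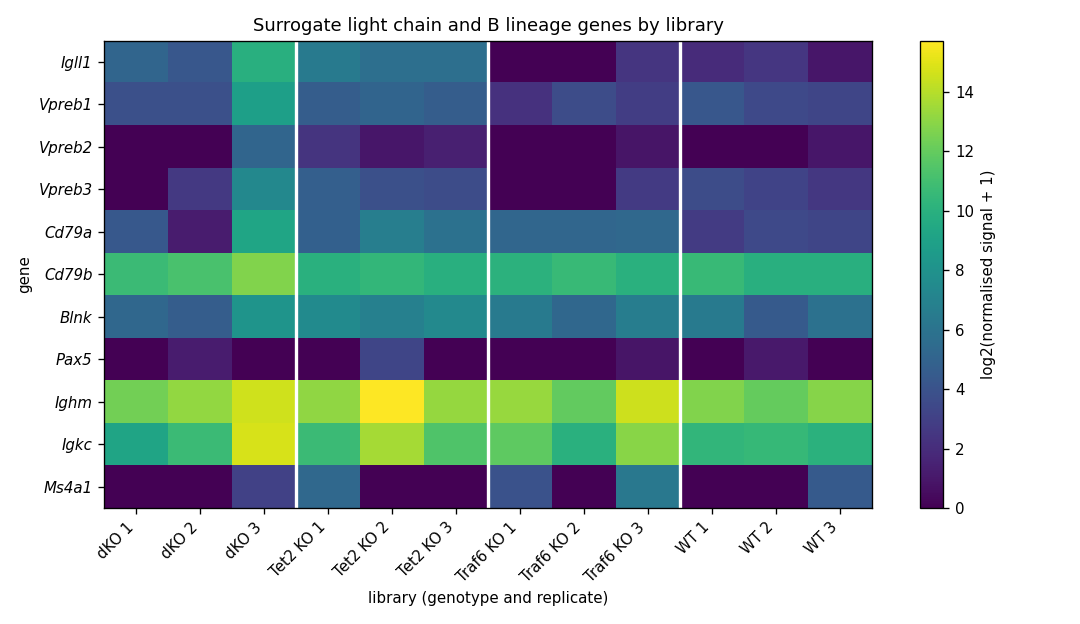
Log2 of (signal + 1) of the surrogate light chain genes and other B lineage genes (rows) in each library (columns, by genotype and replicate), with brighter colours for higher levels. Igll1, Vpreb1, Vpreb2, Vpreb3 and Cd79a were highest in dKO replicate 3, while Pax5 was at most 8.71 in any library and Ighm was highest in Tet2 KO replicate 2.

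The nuclear regulators were the most abundant genes after Dntt. Ikzf1 (chromosome 11, 11685003 to 11772926, plus strand) encodes Ikaros, a zinc finger factor needed for lymphoid development. Its signal was 1973, 1358 and 2091 in dKO libraries, 3038, 1904 and 2400 in Tet2 KO libraries, 4103, 3189 and 4688 in Traf6 KO libraries, and 2745, 3499 and 4015 in WT libraries. All dKO libraries were below all Traf6 KO and WT libraries and overlapped Tet2 KO. Ikzf1 fell by 0.93 ± 0.26 in dKO against WT (limma adjusted p 0.0120) and by 1.15 ± 0.26 in dKO against Traf6 KO (limma adjusted p 0.00780). Without WT replicate 3 the fall against WT was not called (limma adjusted p 0.0574), nor was it without dKO replicate 2 (limma adjusted p 0.0540). With the trend of length and GC removed the change against WT was 0.075 ± 0.20, of the opposite sign (limma adjusted p 0.808).

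Satb1 (chromosome 17, 51736187 to 51833290, minus strand) encodes a chromatin organiser that favours the lymphoid fate of progenitors. Its signal was 4305, 2739 and 2793 in dKO libraries, 4134, 4581 and 3162 in Tet2 KO libraries, 1458, 1893 and 5784 in Traf6 KO libraries, and 1738, 1692 and 2498 in WT libraries. All dKO and Tet2 KO libraries were above all WT libraries, and the Traf6 KO libraries spread over the whole range. As deposited, the log2 change was 0.72 ± 0.42 in dKO against WT (limma adjusted p 0.166) and 1.01 ± 0.42 in Tet2 KO against WT (limma adjusted p 0.477). Its transcript is 6243 nt long, and with the trend of length and GC removed Satb1 rose by 1.89 ± 0.39 in dKO against WT (limma adjusted p 0.00400) and by 1.22 ± 0.39 in dKO against Traf6 KO (limma adjusted p 0.0429). The rise against WT was called without any 1 dKO library, and that against Traf6 KO was not, with adjusted p-values of 0.0564, 0.0922 and 0.0683. On that scale the log2 levels were 12.48, 12.38 and 12.19 in dKO libraries, against 10.39, 10.24 and 10.76 in WT libraries. Tet2 KO against WT was 1.39 ± 0.39 on the same scale (limma adjusted p 0.198).

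Genes with the most similar pattern over the 12 libraries were found by the root mean square difference of centred log2(signal + 1). For Satb1 they were Slco3a1, at 0.304, and Flt3, at 0.31, beside a spread of Satb1 itself of 0.617. Flt3, a cytokine receptor of lymphoid-primed progenitors, had 19755, 11768 and 13206 in dKO libraries, 22040, 24601 and 15109 in Tet2 KO libraries, 12842, 10981 and 21961 in Traf6 KO libraries, and 12006, 10044 and 14503 in WT libraries. For Dntt the nearest were Oscp1 at 0.352 and Ppp3cc at 0.363, for Ikzf1 Sfmbt1 and Bahcc1, both at 0.172, and for Notch1 Zc3h4 at 0.196 and Polr2a at 0.238. The spread of these 3 was 0.588 for Dntt, 0.512 for Ikzf1 and 0.954 for Notch1. For Il7r the smallest difference was 0.678 with Ccdc60, beside a spread of 1.91, and for Rag2 it was 0.632 with Cmah, beside 1.12. For Rag1 it was 0.709 with Wdr65, beside 1.82, and for Vpreb1 0.675 with E030030I06Rik, beside 1.59. For Ccr9 it was 0.949 with Eif3j, beside 2.2, and for Igll1 1.51 with Gm17088, beside 2.86.

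The wider pathways of these genes were read from lists of related genes in dKO against WT, where again 48.3% of all tested genes were called, and 29.2% with the trend removed. Of 15 genes of cytokine receptor chains and signalling, 1 rose and 7 fell, with a median log2 change of -0.36. Kit fell by 2.995 and Jak1, a kinase of the interleukin-7 receptor, by 1.64 (limma adjusted p 0.000640), while Il2rg, the common gamma chain that pairs with Il7r, rose by 0.90 (limma adjusted p 0.0136). Il2rg was 0.12 with the trend removed and was not called (limma adjusted p 0.666). On that scale 2 rose and 4 fell. Those that rose were Flt3, by 0.96 (limma adjusted p 0.0110), and Bcl2, a survival factor, by 1.10 (limma adjusted p 0.0131). Of 18 tested genes of the Notch pathway and T lineage, 2 rose and 7 fell. The Notch-cleaving proteases Adam10 and Adam17 fell by 1.65 and 1.71 as deposited and by 1.01 and 1.02 with the trend removed, where 0 rose and 4 fell.

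Of 12 genes of V(D)J recombination and joining, 4 rose and 2 fell in dKO against WT. Hmgb2, a DNA-bending partner of the RAG enzymes, rose by 1.51 (limma adjusted p 0.00330), and Xrcc4, a factor of end joining, by 1.05 (limma adjusted p 0.0170). Prkdc, the DNA-dependent protein kinase, fell by 1.62 as deposited (limma adjusted p 0.00298) and was 0.14 with the trend removed (limma adjusted p 0.728). With the trend removed 4 of the 12 rose and 1 fell.

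Of 11 tested genes of the pre-B cell receptor and early B lineage, 3 rose and 1 fell in dKO against WT. Cd79b rose by 1.41 (limma adjusted p 0.0155) and Cd72 by 1.25 (limma adjusted p 0.00722), while the kinase Syk fell by 1.77 (limma adjusted p 0.000629). With the trend removed 2 rose and 0 fell, and Cd72 was 1.33 higher (limma adjusted p 0.00735).

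Of 21 tested lymphoid transcription factors 4 rose and 6 fell as deposited, and with the trend removed 6 rose and 0 fell. Id2, an inhibitor of E proteins, rose by 1.45 as deposited (limma adjusted p 0.00619) and by 0.83 with the trend removed (limma adjusted p 0.0369). Tcf12, an E protein, fell by 1.40 as deposited (limma adjusted p 0.00144) and was -0.24 with the trend removed (limma adjusted p 0.435). Of 8 homing receptors 2 rose and 2 fell as deposited. The integrin Itga4 fell by 1.99 as deposited (limma adjusted p 0.000897) and was -0.49 with the trend removed (limma adjusted p 0.0935). Of 11 tested relatives and partners of Ikaros and SATB1, 2 rose and 3 fell, and with the trend removed 1 rose.

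In Tet2 KO against WT, no gene of these pathway lists was called, beside 0.413% of all tested genes. Among the marker lists 1 gene was called, Slamf1, from the 10 tested markers of LSK and early progenitors. Slamf1, a marker of stem cells within LSK, fell by 1.73 ± 0.31 (limma adjusted p 0.0257). Its signal was 258, 379.5 and 223 in Tet2 KO libraries, against 1179, 893 and 760 in WT libraries, and the groups did not overlap. In Traf6 KO against WT and in the interaction, no gene of the pathway or marker lists was called as deposited, beside 0.271% and 0.221% of all tested genes. With the trend removed, 19 of all 13684 genes rose and 33 fell in Traf6 KO against WT. Among them Cd74, the invariant chain of antigen presentation, fell by 1.76 ± 0.33 (limma adjusted p 0.0337), and as deposited the value was -1.70 (limma adjusted p 0.341). Its signal was 2520, 2378 and 2548 in Traf6 KO libraries, against 9077, 8635 and 6618 in WT libraries. Cd74 was not low in Traf6 KO alone. Tet2 KO libraries, at 3428, 4385 and 3897, were also below all WT libraries, though Cd74 was not called there. In dKO libraries it was at 1297, 1143 and 7356, which overlapped WT, and it was called lower against WT with and without the trend.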

How the data were processed

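RNA of sorted LSK cells was made into libraries with a SMART-Seq low-input kit and sequenced on a HiSeq 4000, per the labels' protocols. The kit does not mark strand. The authors deposited a normalised signal per gene and library. The submitters' processing notes list the tools bcl2fastq, STAR, featureCounts and DESeq2. They name mm10 and GRCm38 as builds. Tool versions, settings and strand are not given in the sources used here. Every deposited value was a whole multiple of 1 value per library (100% of values), so the reads behind the signal were recovered.

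The signal is not a raw count, so limma 3.58.1 in R 4.3.3, with trend and robust moderation, was the main test. It ran on log2(signal + 1), with all 12 libraries as 4 groups, no covariates and Benjamini-Hochberg adjustment over 14045 genes with a signal of at least 10 in at least 3 libraries. Fold changes on that scale understate changes of genes with few reads. edgeR 4.0.16 and DESeq2 1.42.0 were run on the recovered reads. A loess trend (span 0.5) on transcript length and GC content was removed per library in one alternative, for 13684 genes. The script was tested on simulated data.

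The 10 genes and all lists were chosen with earlier results of these data known. Named genes were the 10 genes, up to 4 members per list and comparison with the smallest p among those past the threshold, the most abundant members, the neighbours of Rag1 and Rag2, and the 2 genes nearest in pattern to each of the 10; some others were named after their values were known. Positions and transcript lengths came from GENCODE M21 (28387 genes matched by symbol, 2105 by a synonym) and promoters from RefSeq. Some genes of the lists are counted there but are not reported here by name.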

Additional observations from a re-analysis of the deposited data

How the results depend on the processing

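The 10 genes in 6 comparisons gave 60 values, each under up to 26 alternatives, or 25 for the interaction. Rag1 had only 22, or 21 for the interaction. Of the 60 values, 37 kept their direction under every alternative they had. Those that turned most often were uncalled, Rag1 (10 alternatives) and Dntt (7) in dKO against Tet2 KO and Dntt (6) in dKO against Traf6 KO. The counts of genes called changed as follows. In Tet2 KO against WT (0 called), 2 were called with only the 2 compared groups in the fit, Igll1 and Satb1, and 1 with the spread weighted by group. In dKO against WT (4 called), 2 were called with the length and GC trend removed, alone, with the replicate block, or without any 1 dKO library. The 2 called without dKO replicate 3 did not include Igll1. In dKO against Tet2 KO (1 called), 2 were called with edgeR, DESeq2, equal library totals or the replicate block, which added Notch1, and 0 with only the 2 compared groups, without the libraries labelled Tet2 KO and Traf6 KO replicate 1, or with the trend removed and dKO replicate 2 left out; leaving out 1 library gave 1 to 2. In dKO against Traf6 KO (4 called), 0 were called with only the 2 compared groups and, with the trend removed, 1 without dKO replicate 1 or 2 and 2 without dKO replicate 3. The interaction (0 called) had 1, Ccr9, with the trend removed and dKO replicate 3 left out, and 0 to 1 when 1 library was left out. The combinations of the trend with a dKO library left out were chosen after seeing the data. With the trend removed, directions reversed in dKO against WT for Ikzf1 (0.075, also with the replicate block, 0.157 without dKO replicate 1 and 0.161 without dKO replicate 2), Rag1 (0.74 without dKO replicate 1, 0.48 without dKO replicate 2) and Vpreb1 (-0.72 without dKO replicate 3), and without dKO replicate 2 for Notch1 against Tet2 KO (0.014) and Traf6 KO (0.024), and without dKO replicate 3 for Igll1 against Tet2 KO (-1.49). Satb1 in dKO against Traf6 KO was -0.046 without both libraries labelled replicate 1 of the single knockouts. Leaving out 1 library gave ranges of -1.04 to 0.093 for Notch1 and -0.23 to 0.77 for Satb1 in Traf6 KO against WT, -0.13 to 0.56 for Il7r in dKO against WT, -1.31 to 1.51 for Igll1 in dKO against Tet2 KO and -0.046 to 0.95 for Satb1 in dKO against Traf6 KO. The causes were not tested. Equal library totals moved the median of all genes in dKO against WT to -0.34, against -0.09 as deposited. Few reads limit Rag1, Ccr9, Igll1 and Vpreb1. No clear pairing by replicate number was seen. Of 18 same-number pairs, 3 had a correlation of deviations above 0.1 (range -0.18 to 0.19). In 9 of 36 cases a library correlated best with its own number among the 3 libraries of another genotype. The deviations were taken from means of 3 libraries with the length trend left in, so the check cannot exclude a pairing.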
